A study of Mus musculus with 4 samples.

Results

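The genes examined encode the core proteins of the spliceosome and of the small nuclear ribonucleoproteins (snRNPs) from which it is built. They were chosen by symbol: every protein-coding gene of the deposited table whose name begins with Snrnp, Snrp, Sf3a, Sf3b, Prpf, U2af, Luc7l, Lsm followed by a digit or Cwc followed by a digit, together with Cdc40. This gave 65 genes of the 28193 in the table, 16973 of which are protein-coding. All 65 passed the count filter, so none was lost from the tests. By the particle their products belong to, they comprised 3 proteins specific to U1, 6 U1-associated factors, 11 proteins of U2 and its SF3A and SF3B complexes, 3 genes of the U2 auxiliary factor (U2AF), 11 of the U4/U6.U5 tri-snRNP, 3 of the minor U11/U12 particle, 8 Sm proteins, 13 Lsm proteins and 7 catalytic-stage or Prp19 complex factors.

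fosTRAP-seq recovers the RNA on HA-tagged ribosomes of neurons that had expressed Fos during a tagging window. All mice were adult male C57BL/6J mice of 3 to 5 months in which one viral vector supplied a tamoxifen-inducible Cre under the c-Fos promoter and another a Cre-dependent HA-tagged Rpl22, and the labels give the genotype as cFos-Cre:Ribotag and the tissue as dorsal hippocampus where the study's methods name microdissected CA1. All were kept awake for 5 h by gentle handling on day 0, with 4-hydroxytamoxifen given at ZT2, so the tagged cells were those active during that first sleep deprivation in both groups. On day 7 the sleep deprived (SD) mice were kept awake for 5 h again, the non-sleep deprived (NSD) mice were left undisturbed, and tissue was taken from both at ZT5. Each library was a pool of 5 mice, with n = 2 libraries per group and 1 library of each group in each of the 2 labelled batches. The counts summed to between 153511705 and 195910235 per library, and 22338 genes were tested. Every marker gene checked for CA1 pyramidal neurons was detected in every library, with summed levels of 6041 to 6588 CPM (counts scaled to a common library total). So was every marker checked for other cells. Their sums were 719 to 810 CPM for interneurons, 435 to 486 for astrocytes and 1436 to 1723 for oligodendrocytes. They were 55.3 to 72.8 CPM for microglia, 23.9 to 58.9 for endothelial cells and 31.55 to 40.4 for the dentate gyrus. The CA1 sum is mostly Camk2a. Of the 7 CA1 markers, Wfs1 (390 and 441 CPM in NSD, 279 and 355 in SD), Fibcd1 (185 and 217 against 150 and 166) and Neurod6 (123 and 152 against 103 and 113) had both SD libraries below both NSD libraries, and Mpped1 (437 and 454 against 481 and 504) had them above. The median log2 fold change of the 7 was -0.03, with 3 above 0, 0 called by edgeR and 3 lower with the block, and their part in the results was not tested. As these are bulk samples, fewer cells of a type and less RNA per cell cannot be told apart.

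Splicing removes introns in an ordered series of steps. U1 recognises the 5′ splice site and U2, guided by U2AF, the branch site and 3′ splice site, after which the U4/U6.U5 tri-snRNP joins, U1 and U4 leave, and the Prp19 complex and catalytic-stage factors shape the RNA active site, formed by U6 and U2, that catalyses both transesterifications. Rings of Sm proteins form the core of U1, U2, U4 and U5, while the Lsm2 to Lsm8 ring holds U6. A small class of introns with other splice site sequences, the U12-type introns, is removed by a separate minor spliceosome in which U11 and U12 take the places of U1 and U2.

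Genes for certain U11/U12 proteins are known to carry a tandem copy of a U12-type 5′ splice site sequence, which U11 itself can bind and which is linked to the splicing of their own transcripts into forms that are not productive. The core of that sequence, TATCCTT, was therefore sought as 2 copies on the gene's own strand with at most 20 bases between them, a search that was made after the values of these genes had been seen. Among the 65 genes it was present in Snrnp48 and Sf3a2, and among 64 further spliceosome and snRNP assembly genes in Rnpc3, Dhx15 and Ctnnbl1. The windows below are shown because Snrnp48 and Rnpc3 had the largest falls of their lists and Sf3a2 did not pass the test. They are 30 bases of GRCm39, 5′ to 3′ on the gene's strand, with both copies in capitals.
Snrnp48: agTATCCTTtttgcaaatgaTATCCTTtta
Rnpc3: aagtgTATCCTTtcttgTATCCTTttcggg
Sf3a2: acaccagcTATCCTTTATCCTTttgctttg
The Snrnp48 window (chr13:38398643-38398672, plus strand) lay in intron 4 of the 9-exon canonical transcript and within an exon of 7 of the 18 annotated transcripts, of which 4 were marked for nonsense-mediated decay. In Rnpc3 (chr3:113400880-113400909, minus strand) it lay in intron 14 of the 15-exon canonical transcript and within an exon of 6 of 14 transcripts, of which 5 were coding and 1 was marked for nonsense-mediated decay. The copies in Sf3a2 (chr10:80637667-80637696, plus strand) abutted with no spacer in intron 3, and no annotated transcript had an exon there. The same tandem was found in 298 of the 16973 protein-coding gene bodies (1.76%), and in 224 (1.32%) on the opposite strand. Of 1375 gene bodies between 20000 and 26000 bases, a class drawn around the lengths of Snrnp48 and Rnpc3 (22728 and 25083 bases), 6 held it (0.44%). Both genes are among these 6, so this share is not an independent background for them.

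Most genes of the core machinery differed little between NSD and SD. By edgeR's quasi-likelihood test, with an adjusted p below 0.05 and more than a 1.2-fold difference required, 1 of the 65 genes was higher in SD, Luc7l, and 4 were lower, Snrnp48, Snrnp70, Cdc40 and Luc7l2. Over all genes tested 0.77% were called higher and 2.33% lower, and over protein-coding genes 0.952% and 0.54%. The 4 lower genes were 6.15% of the 65. Cdc40, which entered the list by name, Luc7l2 and Snrnp70 had been reported as lower by the study from these same libraries. The shares of the 65 called lower are therefore not independent of that report. With the batch number as a block the counts were 1 higher and 7 lower (10.8%), with Prpf39, U2af1 and Luc7l3 added, against 2.99% higher and 8.47% lower of all genes and 3.77% and 3.29% of protein-coding genes. DESeq2 called 1 higher and 6 lower, against 2.99% and 5.79% of all genes. None of the 5 genes was called by edgeR with no count filter or with its filterByExpr (adjusted p of 0.0524 to 0.0865), and with protein-coding genes only Snrnp70 and Cdc40 were. The median log2 fold change of the 65 genes was -0.06, with 26 above 0 and 39 below, beside a median of -0.02 over all genes and 0.02 over protein-coding genes. For 48 of the 65 (73.8%) the log2 fold change lay within 0.2 of 0, which held for 68.0% of protein-coding genes. Both SD libraries were above both NSD libraries for 13 genes (20.0%, against 26.5% of protein-coding genes) and below for 21 (32.3%, against 20.0%).

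**Figure D1:**
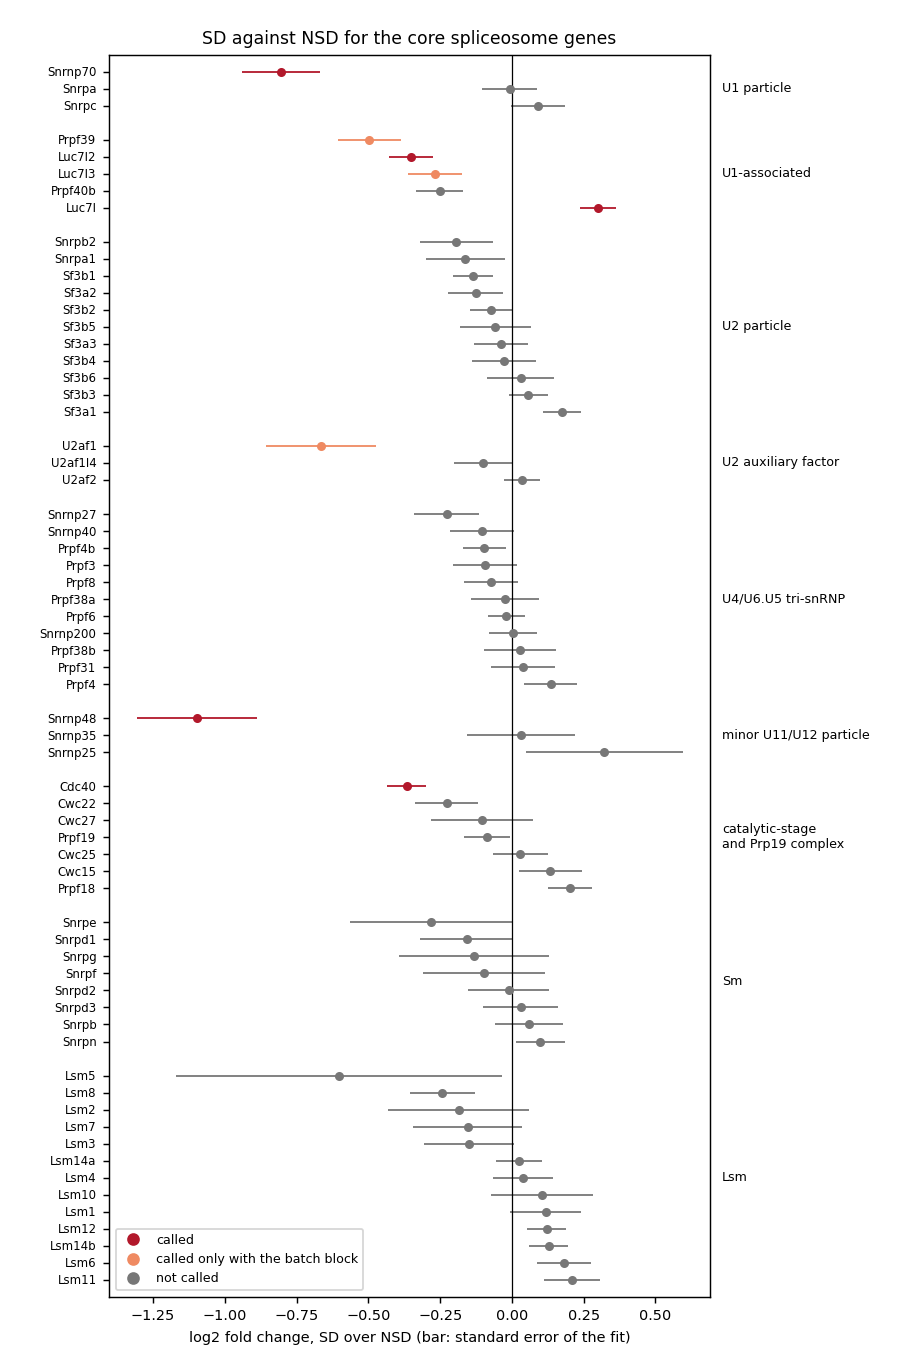
Log2 fold change of SD over NSD for 64 of the 65 genes, grouped by particle, with bars of 1 standard error from the edgeR fit; dark red marks genes called without the batch block, orange those called only with it, grey the rest. The values run from -1.10 (Snrnp48) to 0.32 (Snrnp25), and the genes called lie in the U1, U1-associated, minor and catalytic-stage groups, with U2af1 of U2AF added by the block.

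Of the U1-specific proteins, Snrnp70 fell while Snrpa and Snrpc did not pass the test. Snrnp70 (ENSMUSG00000063511, chr7:45025877-45045166, minus strand) encodes U1-70K, which binds stem-loop 1 of U1 RNA and contacts SR proteins. Its level was 73.3 CPM in NSD 1, 57.9 in NSD 2, 42.2 in SD 1 and 33.0 in SD 2. The groups did not overlap, although the NSD libraries were themselves apart. The log2 fold change was -0.80 (standard error, s.e., 0.137, edgeR adjusted p = 0.0374), a change of -42.7% with a 95% interval of -1.12 to -0.49 on the log2 scale, and it was -0.80 within batch 1 and -0.81 within batch 2. Snrnp70 was the only one of the 5 genes called that kept its call with each library left out in turn, its log2 fold change then lying between -0.99 and -0.59. Snrpa, a U1 protein that binds stem-loop 2 of the RNA, stood at 26.0 and 30.7 CPM in NSD and 27.3 and 29.0 in SD, a log2 fold change of -0.01 (95% interval -0.23 to 0.21). Snrpc, the U1 protein that contacts the 5′ splice site, had one of 0.09 (interval -0.12 to 0.30). Per kilobase of canonical transcript, Snrnp70 was above Snrpa in both NSD libraries (1.79 and 1.19 times its level) and below it in both SD libraries (0.976 and 0.721 times), although Snrpa shares 396 exon bases with BC024978 on the opposite strand, a gene at 110% of its level. Undivided by length the CPM ratio was 2.82 and 1.88 in NSD and 1.54 and 1.14 in SD, so the change of rank depends on the length used.

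Of the U1-associated factors edgeR called 1 higher and 1 lower, and 3 lower with the block, while DESeq2 called 1 higher and 2 lower (Luc7l2 and Prpf39). Luc7l, Luc7l2 and Luc7l3 are the mammalian relatives of yeast Luc7, a U1 component that influences the choice of 5′ splice site. Luc7l (ENSMUSG00000024188, chr17:26471870-26504478, plus strand) measured 77.3 and 79.9 CPM in NSD and 95.1 and 98.4 in SD. Luc7l2 (ENSMUSG00000029823, chr6:38528269-38586405, plus strand) went the other way, from 97.9 and 88.5 to 75.8 and 70.4 CPM. For both genes the libraries of a group lay closer together than the groups did. The log2 fold change of Luc7l was 0.30 (s.e. 0.0641, edgeR adjusted p = 0.0482), and it was 0.30 within each batch. That of Luc7l2 was -0.35 (s.e. 0.0759, edgeR adjusted p = 0.0491), with -0.37 in batch 1 and -0.33 in batch 2. Luc7l3 read 42.1 and 37.1 CPM in NSD against 35.1 and 30.7 in SD, a log2 fold change of -0.27 that was called only with the batch block (edgeR adjusted p = 0.160 without it and 0.0112 with it) or without SD 1 (0.0399). It was -0.14 without NSD 1 and -0.16 without SD 2, not called in either. The ratio of Luc7l to Luc7l2 per kilobase was 0.498 in NSD 1, 0.570 in NSD 2, 0.792 in SD 1 and 0.882 in SD 2, with no overlap between the groups. Undivided by length the CPM ratio was 0.789 and 0.903 in NSD and 1.26 and 1.40 in SD, so which of the pair ranks higher in SD depends on the length used. The calls of this pair were near the threshold. Luc7l was no longer called without NSD 1 (adjusted p = 0.0875), without SD 1 (0.0512) or without SD 2 (0.109), and Luc7l2 without NSD 1 (0.151), without SD 2 (0.148) or with DESeq2's size factors in edgeR (0.0593).

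The promoters of Luc7l and Luc7l2 are shown because these genes moved in opposite directions. Each runs from 250 bases before to 50 after the start of the canonical transcript in GRCm39, 5′ to 3′ on the gene's strand, with GGGCGG, the core of the GC box, in capitals on either strand.
Luc7l: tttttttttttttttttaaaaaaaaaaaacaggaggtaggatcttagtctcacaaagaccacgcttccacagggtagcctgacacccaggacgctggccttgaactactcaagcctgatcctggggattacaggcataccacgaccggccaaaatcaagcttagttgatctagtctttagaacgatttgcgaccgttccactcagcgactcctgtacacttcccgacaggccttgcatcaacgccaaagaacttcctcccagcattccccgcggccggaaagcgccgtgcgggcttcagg
Luc7l2: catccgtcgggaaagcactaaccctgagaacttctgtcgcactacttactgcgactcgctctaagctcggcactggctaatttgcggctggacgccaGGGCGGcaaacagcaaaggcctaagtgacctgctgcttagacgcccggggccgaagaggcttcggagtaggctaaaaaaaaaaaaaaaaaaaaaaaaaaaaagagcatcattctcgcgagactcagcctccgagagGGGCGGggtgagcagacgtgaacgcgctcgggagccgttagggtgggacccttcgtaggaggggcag
The Luc7l window (chr17:26471620-26471919) held no GGGCGG and had a GC content of 50.3%, and the Luc7l2 window (chr6:38528019-38528318) held 2 copies and had one of 55.7%. The promoter of Luc7l3, which was lower with the block, held no GGGCGG and 1 CCAAT, with a GC content of 45.7%. Neither the Luc7l nor the Luc7l2 window held TGACGTCA, the full cyclic AMP response element, or CCAAT. Of the 65 promoters 39 held GGGCGG (60.0%, against 54.43% of 15533 protein-coding promoters), 26 held CCAAT (40.0% against 39.05%) and 4 held TGACGTCA (6.2% against 2.93%). The genes with TGACGTCA were Lsm2, Lsm12, Snrnp40 and Snrpa, none of which was called.

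Prpf39 and Prpf40b completed the U1-associated genes described. Prpf39, whose yeast counterpart is a U1 component, had 16.1 and 13.8 CPM in NSD and 10.9 and 10.2 in SD. Its log2 fold change of -0.50 missed the threshold without the block (edgeR adjusted p = 0.0515) and passed it with the block (0.00246), without NSD 2 (0.0329), without SD 1 (0.0104) or in DESeq2 (0.00556). Without NSD 1 it was -0.35 (adjusted p = 0.176). Prpf39 shares 1842 exon bases with Fkbp3 on the opposite strand, a gene at 206% of its level. For Prpf40b the log2 fold change was -0.25 (adjusted p by edgeR 0.128). With the block its adjusted p was 0.0250 but the fold change was under 1.2. The median log2 fold change of the group was -0.26, and -0.15 without NSD 1.

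**Figure D2:**
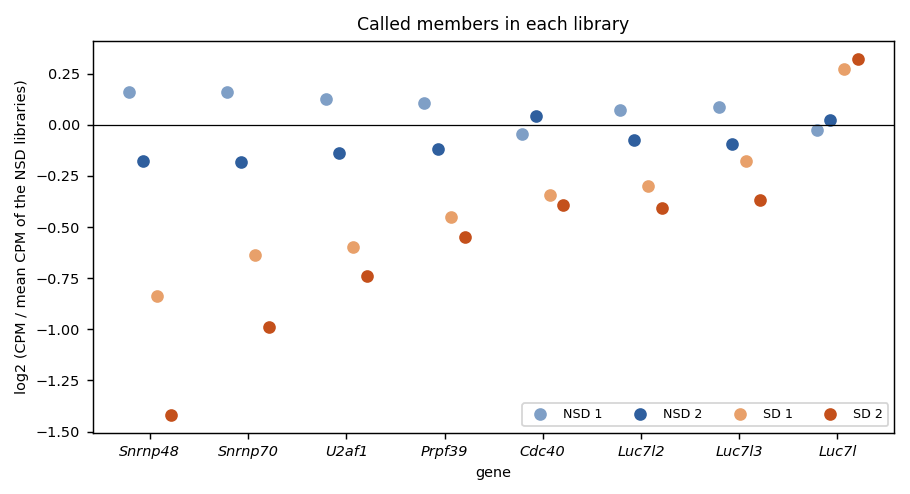
Level of the 8 genes called with or without the batch block in each library, as log2 of CPM over the mean CPM of the NSD libraries; each point is 1 library. The SD points of 7 genes lie below both NSD points and those of Luc7l above, and Snrnp48 and Snrnp70 spread most within a group.

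U2 proteins differed little between the groups. SF3A and SF3B hold U2 on the branch site, and SF3B1 is the subunit that clamps around the branch helix. All 11 log2 fold changes lay within 0.2 of 0, from -0.19 (Snrpb2, the U2B″ protein) to 0.17 (Sf3a1), with a median of -0.06 and none called with or without the block. By unadjusted p, 1 of the 11 was under 0.05, Sf3a1, at 63.8 and 61.9 CPM in NSD and 68.8 and 73.1 in SD (edgeR adjusted p = 0.199). Sf3b1 measured 174 and 176 CPM in NSD against 160 and 158 in SD (log2 fold change -0.14, 95% interval -0.29 to 0.02). Without the block edgeR called no U2AF gene, while DESeq2 called U2af1 lower (adjusted p = 0.0297). U2af2, the large subunit that reads the polypyrimidine tract, had 85.9 and 89.5 CPM in NSD and 90.5 and 89.2 in SD, a log2 fold change of 0.04 (95% interval -0.11 to 0.18). U2af1, the small subunit that contacts the AG of the 3′ splice site, had 4.05 and 3.39 CPM in NSD and 2.46 and 2.23 in SD. Its log2 fold change of -0.67 was called by edgeR only with the block (edgeR adjusted p = 0.0996 without it, 0.0171 with it). Per kilobase it stood at 0.0781 to 0.0974 times U2af2 in NSD and 0.0517 to 0.0562 times in SD. U2af1l4, a related small subunit that shares 421 exon bases with Psenen on the opposite strand (a gene at 87.3% of its level), had a log2 fold change of -0.10 and was above U2af1 per kilobase in both groups (13.8 against 3.49 CPM per kilobase in NSD).

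No tri-snRNP gene was called with or without the block. By edgeR 0 of the 11 also had an unadjusted p under 0.05, and the median log2 fold change was -0.02. Prpf8, the scaffold at the heart of the spliceosome, measured 523 and 533 CPM in NSD and 468 and 536 in SD, and Snrnp200, the helicase that unwinds U4 from U6, 211 and 217 against 201 and 228. For both genes the libraries of the groups overlapped. The extremes of the group were Prpf4, a U4/U6 protein (log2 fold change 0.13, 95% interval -0.08 to 0.34), and Snrnp27 (-0.23, interval -0.49 to 0.03). The summed level of the group was 904.9 and 919.4 CPM in NSD and 836.3 and 930.3 in SD.

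Among the minor spliceosome genes Snrnp48 fell, with the largest change of the 65. Snrnp48 (ENSMUSG00000021431, chr13:38388914-38411641, plus strand) encodes the U11-48K protein, which recognises the U12-type 5′ splice site. It measured 9.08 CPM in NSD 1, 7.19 in NSD 2, 4.56 in SD 1 and 3.05 in SD 2, so the SD libraries were below both NSD libraries and the spread within each group was wide. The log2 fold change was -1.10 (s.e. 0.21, 95% interval -1.58 to -0.62, edgeR adjusted p = 0.0397), with -0.99 in batch 1 and -1.24 in batch 2. Without NSD 1 it was -0.89 and no longer called (adjusted p = 0.0862). The other members of the particle did not pass the test. Snrnp35, the U11/U12-35K protein that resembles U1-70K, had 3.02 and 2.67 CPM in NSD and 3.04 and 2.77 in SD (log2 fold change 0.03, interval -0.40 to 0.46). Snrnp25, the U11/U12-25K protein, had one of 0.32 (interval -0.30 to 0.94) from 1.39, 1.98, 2.43 and 1.78 CPM in NSD 1, NSD 2, SD 1 and SD 2. It shares 285 exon bases with Rhbdf1 on the opposite strand, a gene at 166% of its level. Per kilobase, Snrnp48 went from 5.99 and 5.37 times Snrnp35 in NSD to 2.99 and 2.20 times in SD. However, 1584 exon bases of Snrnp35 lie opposite exons of Rilpl1, a gene at 1104% of its level, so both the level of Snrnp35 and its fold change are uncertain unless counting used strand.

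Other genes of the minor spliceosome were read from the list of 64 spliceosome and assembly genes outside the symbol rule. Rnpc3, the U11/U12-65K protein that bridges U11 and U12, measured 6.93 and 5.39 CPM in NSD and 2.88 and 2.47 in SD. Its log2 fold change of -1.20 (s.e. 0.183, edgeR adjusted p = 0.0345) was the largest of both lists. Without NSD 1 it was -0.98 (adjusted p = 0.0603), and 1128 of its exon bases are shared with Amy1 on the same strand, a gene at 33.8% of its level. Zcrb1, the U11/U12-31K protein, had a log2 fold change of -0.43 that was called only with the block (edgeR adjusted p = 0.160 without it and 0.0489 with it). In contrast, Pdcd7 (U11-59K) and Zrsr2, which contacts the 3′ splice site of U12-type introns, each had one of 0.15 and were not called. Zmat5, Scnm1, Rbm48 and Armc7 lay between -0.21 and -0.04 and were not called. Of the genes with the tandem TATCCTT sequence, the remaining 3, Sf3a2 (-0.13), Ctnnbl1 (-0.06) and Dhx15 (0.03), were not called, and Zcrb1 does not carry it. As the search followed the falls of Snrnp48 and Rnpc3, nothing can be read from their carrying it.

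**Figure D3:**
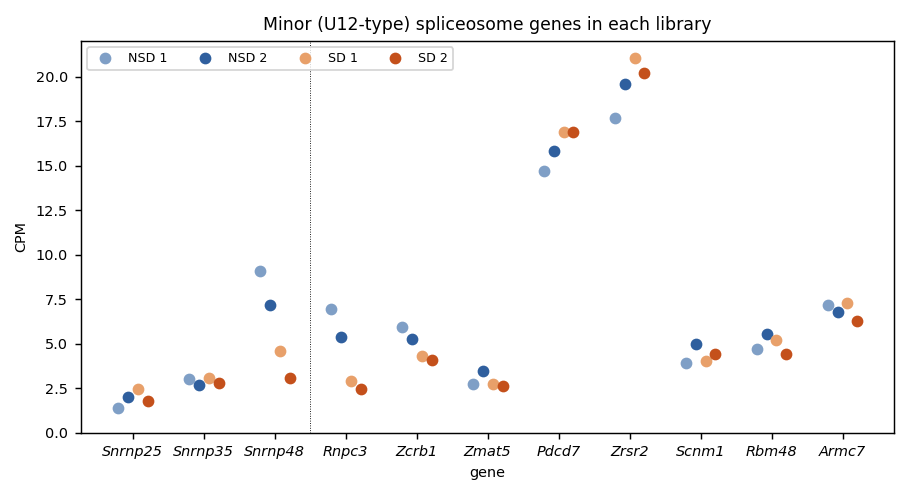
CPM of 11 minor spliceosome genes in each library, with the 3 chosen by symbol left of the dotted line; each point is 1 library and the axis starts at 0. Snrnp48 and Rnpc3 are lower in both SD libraries, Pdcd7 and Zrsr2 are higher in both, and Snrnp25 and Snrnp35 overlap between groups.

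The catalytic-stage genes held 1 call. Cdc40 (ENSMUSG00000038446, chr10:40707617-40759307, minus strand) encodes the counterpart of yeast Prp17, which acts in the second step of splicing. It had 58.5 and 62.1 CPM in NSD and 47.5 and 46.0 in SD, and here the libraries of each group lay close together. The log2 fold change was -0.37 (s.e. 0.0679, edgeR adjusted p = 0.0397). However, 317 of its exon bases lie opposite exons of Wasf1, a gene at 569% of its level, and the counting is not stated to have used strand. Cdc40 was no longer called without NSD 2 (adjusted p = 0.0505) or without SD 2 (0.0809). Prpf18, another second-step factor, had 28.9 and 31.8 CPM in NSD against 34.9 and 35.0 in SD, a log2 fold change of 0.20 that was not called (edgeR adjusted p = 0.192). The core Prp19 complex subunit Prpf19 had one of -0.09 (interval -0.27 to 0.10), and the Cwc genes ran from -0.23 (Cwc22) to 0.13 (Cwc15).

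Sm and Lsm genes were not called by edgeR with or without the block, nor by DESeq2, and 0 of the 21 had an unadjusted p under 0.05 in the edgeR fit. The 8 Sm genes had log2 fold changes of -0.28 (Snrpe) to 0.10 (Snrpn) and a median of -0.05. That of Snrpe was imprecise (95% interval -0.93 to 0.37), and its libraries overlapped between the groups, at 1.62 and 1.31 CPM in NSD and 1.38 and 1.03 in SD. Snrpn, an imprinted gene that gives the neuronal SmN protein in place of SmB, had 474 and 502 CPM in NSD and 518 and 528 in SD (95% interval -0.09 to 0.29 on the log2 scale). Snrpb, which encodes SmB and SmB′, had 16.3 and 20.7 against 18.4 and 20.1 CPM (log2 fold change 0.06). Per kilobase, Snrpn was 7.36 to 8.83 times as abundant as Snrpb and made up 71.1% to 75.0% of the summed level of the 8 Sm genes. It shares 1250 exon bases with Gm38393 on the same strand, a gene at 9.2% of its level. The 13 Lsm genes had a median of 0.04. They include the rings of U6 and of cytoplasmic mRNA decay and, in Lsm10 and Lsm11, part of the U7 particle of histone mRNA processing. Lsm11 was the highest at 0.21 (23.6 and 19.6 CPM in NSD, 25.1 and 24.9 in SD), but its log2 ratio was 0.09 in batch 1 and 0.34 in batch 2. Lsm5 was the lowest at -0.60 (interval -1.90 to 0.70), and its level of 0.0775 to 0.169 CPM was too low for a difference of this size to be detected.

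Levels differed far more between genes than between groups. In NSD the means ran from 0.218 CPM per kilobase (Lsm5) to 127.6 (Snrpn), followed downward by Prpf8 at 70.6, Prpf19 at 51.2 and U2af2 at 40.0. Snrnp70, at 24.5 CPM per kilobase in NSD and 14.0 in SD, went by this measure from the top of the U1 proteins to below Snrpa and Snrpc. Its CPM undivided by length stayed above theirs in every library. The per-kilobase values use the canonical transcript's length, so a gene that uses shorter or longer forms is misplaced by that much.

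**Figure D4:**
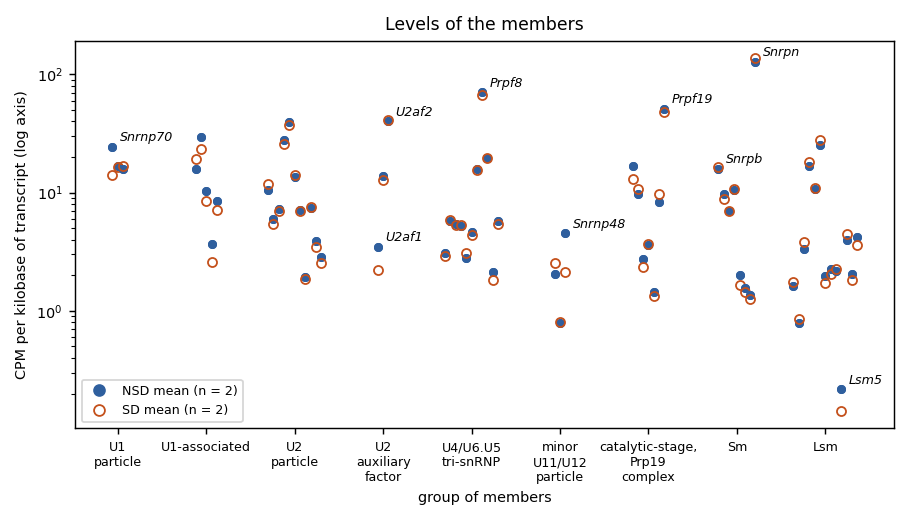
Mean CPM per kilobase of canonical transcript for 64 of the 65 genes by group, on a log axis; filled points are the NSD mean and open points the SD mean (n = 2 libraries each). Genes span from 0.218 (Lsm5) to 127.6 (Snrpn) in NSD, while most pairs of points nearly coincide.

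Within each batch the genes could be compared without the other batch's libraries. In 44 of the 65 (67.7%) the SD library lay on the same side of its NSD partner in both batches, 16 higher and 28 lower, where 65.8% of protein-coding genes did so, 5687 higher and 4544 lower of 15551. Among the genes called, whose batch ratios the blocked fit itself favours when alike, Snrnp48 had ratios of -0.99 and -1.24. The ratios of Snrnp25 (0.80 and -0.15) and Lsm5 (-1.02 and -0.02) differed between the batches.

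**Figure D5:**
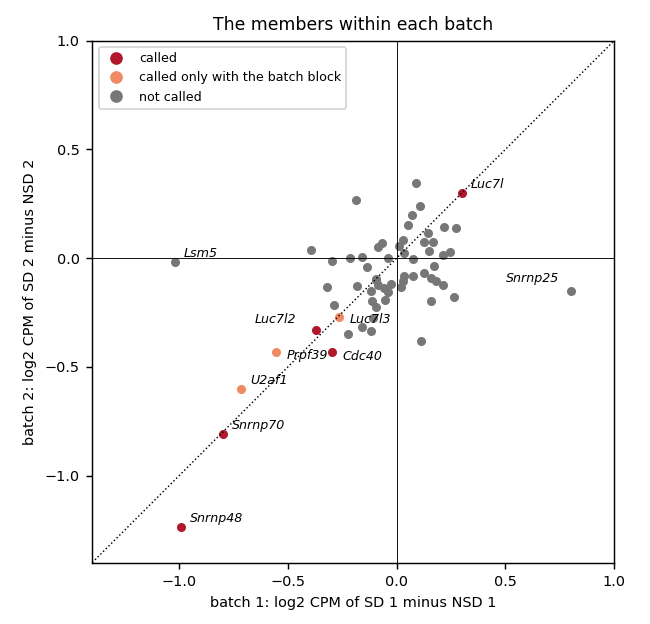
Log2 ratio of SD to NSD within batch 1 (horizontal) and within batch 2 (vertical) for 64 of the 65 genes; the dotted line marks equal ratios. The called genes lie along the line, from Snrnp48 at -0.99 and -1.24 to Luc7l at 0.30 and 0.30, and most others gather near 0.

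The annotated transcripts of these genes include many that are not productive. Of the transcripts annotated for a gene, a median of 56.0% (40.7% to 84.2%) were marked as targets of nonsense-mediated decay or as holding a retained intron among the 7 genes called lower with the block, and 37.4% (0% to 83.9%) among the other 58, which include Luc7l. The ranges overlapped, the difference was not tested, and the 7 also had more annotated transcripts (median 25 against 18.5) and exons (10 against 7.5). Prpf39 was highest of the 65, with 32 of 38 transcripts, and Snrnp70 had 21 of 34. Luc7l, the gene that rose, had 13 of 28 (46.4%). The gene-level counts do not separate these forms.

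Nuclear RNA varied between the libraries in the same order as several of these genes. The summed level of 8 nuclear long noncoding RNAs, Malat1, Neat1, Meg3, Miat, Rian, Mirg, Snhg11 and Kcnq1ot1, was 6381 CPM in NSD 1, 4235 in NSD 2, 3293 in SD 1 and 2419 in SD 2. All 8 were below 0 in log2 fold change (median -1.31), with 5 called lower by edgeR and 8 with the block. Snrnp48, Snrnp70, Luc7l2, Luc7l3, Prpf39, Prpf40b, Prpf4b and U2af1 stood in that same order of libraries, 8 of the 65 (12.3%) beside 7.53% of protein-coding genes and 13.2% of all genes tested. Rnpc3, Zcrb1 and Sart1 of the other list did so too, 3 of 64 (4.69%). Cdc40 did not. Luc7l stood in the reverse order, with 77.3 and 79.9 CPM in NSD 1 and NSD 2 and 95.1 and 98.4 in SD 1 and SD 2. The share of genes in the reverse order was not counted. Endothelial markers were lower too, with 8 of 8 below 0, a median of -0.76, 0 called by edgeR and 5 with the block, sums of 43.0 and 58.9 CPM in NSD and 35.8 and 23.9 in SD, and none at 0. Their part in the results for the spliceosome genes was not tested.

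The list of 64 further spliceosome and snRNP assembly genes, among them the SMN complex and the remaining U5, U2 and Prp19 complex proteins, held 1 call, Rnpc3, lower (1.56%, against 2.33% of all genes and 0.54% of protein-coding genes), with 0 higher. By unadjusted p under 0.05 edgeR gave 1 higher and 5 lower, and DESeq2 gave 3 and 3. With the block 1 was higher (Txnl4a, 1.56%) and 2 lower (Rnpc3 and Zcrb1, 3.12%), against 2.99% and 8.47% of all genes and 3.77% and 3.29% of protein-coding genes. Txnl4a, a U5 protein, differed by 0.36 on the log2 scale (adjusted p by edgeR 0.175 without the block, 0.0314 with it and 0.0477 without NSD 2) and shares 3537 exon bases with Naa12 on the same strand, a gene at 585% of its level. The median of the list was -0.01, and that of its 17 assembly genes 0.08, with 10 above 0 and none called.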

How the data were processed

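RNA on HA-tagged ribosomes was prepared with a stranded, ribosomal RNA-depleted total RNA kit and sequenced as 150-base read pairs. After base trimming the authors used STAR 2.7.8a for alignment and assigned reads to genes of Ensembl release 110 on mm39 (GRCm39) with the E/M model of Partek Flow. The deposited table gives estimated counts that the authors had not normalized, with a fractional value in 55.5% of genes. Whether counting used strand is not stated in the sources used here.

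Estimated counts were rounded. Genes whose 4 rounded values were all above 5 (22338) entered edgeR 4.0.16 (R 4.3.3) by its quasi-likelihood test on TMM-scaled libraries, with SD or NSD as the sole term, and p-values were adjusted over all of them by Benjamini-Hochberg. Calls took the study's thresholds (adjusted p below 0.05, more than 1.2-fold), although the study used DESeq2. The study counted more genes higher than lower, whereas over all genes edgeR here called 172 higher and 520 lower and DESeq2 669 and 1294. Among protein-coding genes edgeR called 148 higher and 84 lower. The reason for the difference from the study was not tested. CPM values carry the TMM factors, intervals use a t quantile on 8.38 degrees of freedom, and log2 values of single libraries a prior count of 2. The libraries are separate pools of mice, so p-values measure the spread between pools.

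Each library's batch number in the labels equals its replicate number, which pairs the groups. Deviations from the group means correlated at 0.178 across genes between libraries of one number. The fit with this block is an alternative, as are DESeq2 1.42.0, its size factors in edgeR, filterByExpr in place of the count filter, no count filter at all, protein-coding genes only and each library left out in turn, where the lone library was assumed to vary like the other group. Both tools were tested on simulated data. Genes were named if called with or without the block, at an unadjusted p under 0.05, at the extremes of a group, in the Luc7l family or as Snrpb or Snrpn, and for the other list if called or at its extremes. Genes outside this rule were named after their values were seen. The members, lists and particle groups were chosen with earlier results of these data known.

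Gene structures, exon overlaps and sequences came from GENCODE M39 and the GRCm39 genome, in which all 65 genes were found. The values of 1 member are not reported here and it is not drawn in the figures. GENCODE M39 is a later annotation than the one used for counting. Coordinates of genes are those of GENCODE M39.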

Additional observations from a re-analysis of the deposited data

How the results depend on the processing

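Precision was limited by n = 2 libraries per group and, for rare genes such as Lsm5, by counts. The number of spliceosome genes called lower depended on the settings. It was 4 in the reported fit, 7 with the replicate block, 3 with DESeq2's size factors in edgeR, 2 with protein-coding genes only, 0 with no count filter, 0 with edgeR's filterByExpr, and 2 to 6 with a library left out. The number called higher was 1, and 0 with no count filter, filterByExpr or protein-coding genes only, and 0 to 1 with a library left out. Where edgeR called 0, 3 to 4 genes higher and 8 lower had an unadjusted p under 0.05 with no count filter and with filterByExpr, and the adjusted p of the 5 called genes ran from 0.0524 to 0.0865. Of the other list, 1 was higher and 2 lower with the replicate block, 0 were lower with filterByExpr, and 0 to 1 were called in each direction with a library left out. The replicate block changed no other call among these 2 lists. Medians with a library left out ran from -0.0718 to -0.0183 over all 65 genes, 0.0055 to 0.1062 for Lsm, -0.1062 to 0.067 for Sm, -0.0941 to 0.1046 for U1, -0.3371 to -0.1484 for U1-associated, -0.109 (without NSD 1) to 0.0021 (without NSD 2) for U2, -0.1441 to -0.0243 for U2AF, -0.0579 to 0.0029 for the tri-snRNP, -0.0436 to 0.0017 for the catalytic-stage genes, -0.0553 to 0.1193 for the minor particle and -0.0146 to 0.0776 for the other list. With no count filter they were 0.0676 for Lsm, 0.0039 for the tri-snRNP and -0.0583 for the catalytic-stage genes. The log2 fold change of Snrpb, not called, turned to -0.0718 without NSD 1 and ran to 0.2422 with other libraries left out. The cause of these shifts was not tested.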

Other observations

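Only long noncoding RNAs, processed pseudogenes and transcripts of unassigned type were sought within the bounds of these genes, and few were at a measurable level. Other classes of gene were not sought, and introns were not separated from exons. Gm44567, an annotated transcript of unassigned type that lies within Lsm14a on the same strand, had 0.603 and 0.477 CPM in NSD and 0.122 in both SD libraries (log2 fold change -2.14, edgeR adjusted p = 0.0476), while Lsm14a itself had a log2 fold change of 0.02. Transcripts of this type were also lower as a class, at 0.273% and 0.21% of counts in NSD and 0.157% and 0.118% in SD. Gm16580, a processed pseudogene within Luc7l, had a log2 fold change of 0.07 beside the 0.30 of Luc7l.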
